A study of Mus musculus with 6 samples.

Results

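The circadian clock genes Arntl, Per1, Per2, Per3, Ciart, Bhlhe41, Nr1d1, Nr1d2, Dbp and Tef, (the clock loop and its direct outputs) were read in bulk RNA-seq of the mouse dorsal hippocampus, to see whether their levels leave room for a difference in dissection time between the treatment groups. They were chosen by name, as 10 of the 55401 genes in the count files, and all 10 were among the 19969 genes with enough counts to be tested. The samples came from wild-type (WT) littermates of Ts65Dn mice, 4 months old, which received 50 µg of an antisense oligonucleotide (ASO) in the dorsal dentate gyrus (DG) of each hemisphere. In 3 samples this was a scrambled oligonucleotide (Control-ASO), and in 3 it was one directed at the long non-coding RNA Snhg11 (Snhg11-ASO). Per the study's methods, the mice had been anaesthetised with ketamine and medetomidine, received the opioid buprenorphine after surgery, were housed on a light and dark cycle of equal phases, and their dorsal hippocampi were frozen 3 days after injection. All 6 samples share the WT genotype, the surgery and an injected oligonucleotide, and no uninjected sample was analysed here. The clock time of each dissection is not given in the sources used here, so time of day could not enter any fit. The methods give 3 dissected mice per group, while the labels number the samples without naming the animals.

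The mammalian clock is a feedback loop of transcription. BMAL1 (the product of Arntl) and its partner CLOCK bind E-boxes and switch on the Per and Cry genes, whose proteins then shut BMAL1 and CLOCK off. The same pair switches on Nr1d1 and Nr1d2, whose REV-ERB proteins repress Arntl, and the output factors Dbp and Tef, so that in mouse tissues Arntl peaks at the time of day when Dbp, Nr1d1 and the Per genes are low. A shift in sampling time can therefore move these genes in different directions. Which way each gene moves depends on the time of day and on the shift. The brain's master clock is in the suprachiasmatic nucleus, and the hippocampus keeps a rhythm of its own that is set partly by glucocorticoids, which act directly on Per1.

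The elements through which the loop runs can be read near the starts of the genes. RefSeq windows of 250 bases before to 50 bases after each start (GRCm38.p6) were at hand for 9 of the 10 genes (12 windows). Each stretch is shown because it holds the matched element, printed 5′ to 3′ on the gene's own strand with the element in capitals.
Arntl, second start, chr7:113207521-113207560, plus strand: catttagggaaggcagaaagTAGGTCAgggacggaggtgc
Per1, chr11:69098763-69098808, plus strand: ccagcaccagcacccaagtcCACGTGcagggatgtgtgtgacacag
Per3, chr4:151044796-151044890, minus strand: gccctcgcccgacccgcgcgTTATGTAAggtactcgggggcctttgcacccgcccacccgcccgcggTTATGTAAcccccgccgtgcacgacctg
Ciart, chr3:95882247-95882364, minus strand: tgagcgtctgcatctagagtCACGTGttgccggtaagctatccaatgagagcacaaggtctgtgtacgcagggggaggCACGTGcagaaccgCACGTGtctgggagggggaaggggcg
Bhlhe41, chr6:145865548-145865593, minus strand: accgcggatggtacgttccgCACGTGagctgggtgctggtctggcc
Nr1d1, chr11:98775380-98775425, minus strand: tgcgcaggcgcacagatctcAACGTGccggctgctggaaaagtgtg
Tef, first start, chr15:81802526-81802571, plus strand: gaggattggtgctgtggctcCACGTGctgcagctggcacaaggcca
Tef, second start, chr15:81811256-81811301, plus strand: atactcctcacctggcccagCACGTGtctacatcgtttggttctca
The E-box CACGTG, the site of BMAL1 and CLOCK, was found in windows of 4 genes, Per1, Ciart, Bhlhe41 and Tef, and Ciart held 3 copies. Of all 32851 windows, 7.15% held it. The related E-box CACGTT (on either strand, so AACGTG in the stretch shown) was found in Nr1d1 and in 4.68% of all windows. The D-box, searched as TTATGTAA or TTACGTAA, is the site of DBP, TEF and HLF. It was found in Per3, in 2 copies, and in 1.06% of all windows. TAGGTCA or TGGGTCA, the 3′ end of the element that the ROR activators and REV-ERB repressors share, was found in Arntl and in 6.45% of all windows. The cAMP-responsive element TGACGTCA was found in no window of the 9 genes and in 1.79% of all. All motifs were searched on both strands, the motif letters do not contain one another, and a match describes letters and not binding. Nr1d2 and Dbp held none of these motifs in their windows.

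The libraries held 28951250 to 43997537 read pairs counted to genes on the expected strand, and every Snhg11-ASO library was deeper than every Control-ASO library. The members were covered by 223 pairs (Ciart) to 10984 pairs (Tef) per sample. Levels are given as CPM, a gene's count per 1000000 counts to tested genes, with library sizes corrected by TMM factors. Values of a group are listed in the order of its replicates 1, 2 and 3. Snhg11 itself measured 551, 436 and 209 CPM in the Control-ASO samples, against 139, 65.4 and 69.4 CPM after Snhg11-ASO. Its log2 fold change was -2.13 (SE 0.43), which passed the DESeq2 test (adjusted p = 6.2e-05) and did not pass edgeR's quasi-likelihood test (Benjamini-Hochberg adjusted p = 0.395). Across the transcriptome, edgeR called 0 of 19969 genes (0%), with 1619 (8.11%) at an unadjusted p under 0.05, and DESeq2 called 258 of the 17966 genes it gave an adjusted p (1.44%). The groups did not overlap in 3081 genes (15.4%). Snhg11-ASO replicate 1 stood apart: it was the highest or the lowest of the 6 samples at 65.8% of all tested genes, against 20.1% to 32.5% for the other samples, so values without it are given beside the clock results. Neuron markers were abundant in every sample, at a summed 2938, 3044 and 3078 CPM over 6 genes in Control-ASO and 2590, 2872 and 2702 CPM in Snhg11-ASO. Every Snhg11-ASO sum lay below the Control-ASO sums, 5 of the 6 genes had negative log2 fold changes (median -0.17), and 2 of them had groups that did not overlap.

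None of the 10 clock genes passed the test: edgeR called 0, DESeq2 called 0, and 0 had an unadjusted p under 0.05. With Snhg11-ASO set against Control-ASO, 6 had negative and 4 positive log2 fold changes, from -0.52 (Dbp) to 0.63 (Per1), with a median of -0.057, beside a median of 0.0097 over all tested genes. Only Tef separated the groups, with its 3 Snhg11-ASO values below its 3 Control-ASO values, which is 1 gene of 10 beside the 15.4% of all tested genes whose groups did not overlap. The widths of the intervals differed much between the members. The 95% interval of Bhlhe41 allowed a log2 difference of -0.27 to 0.22, while that of Per1 allowed -0.59 to 1.86.

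**Figure D1:**
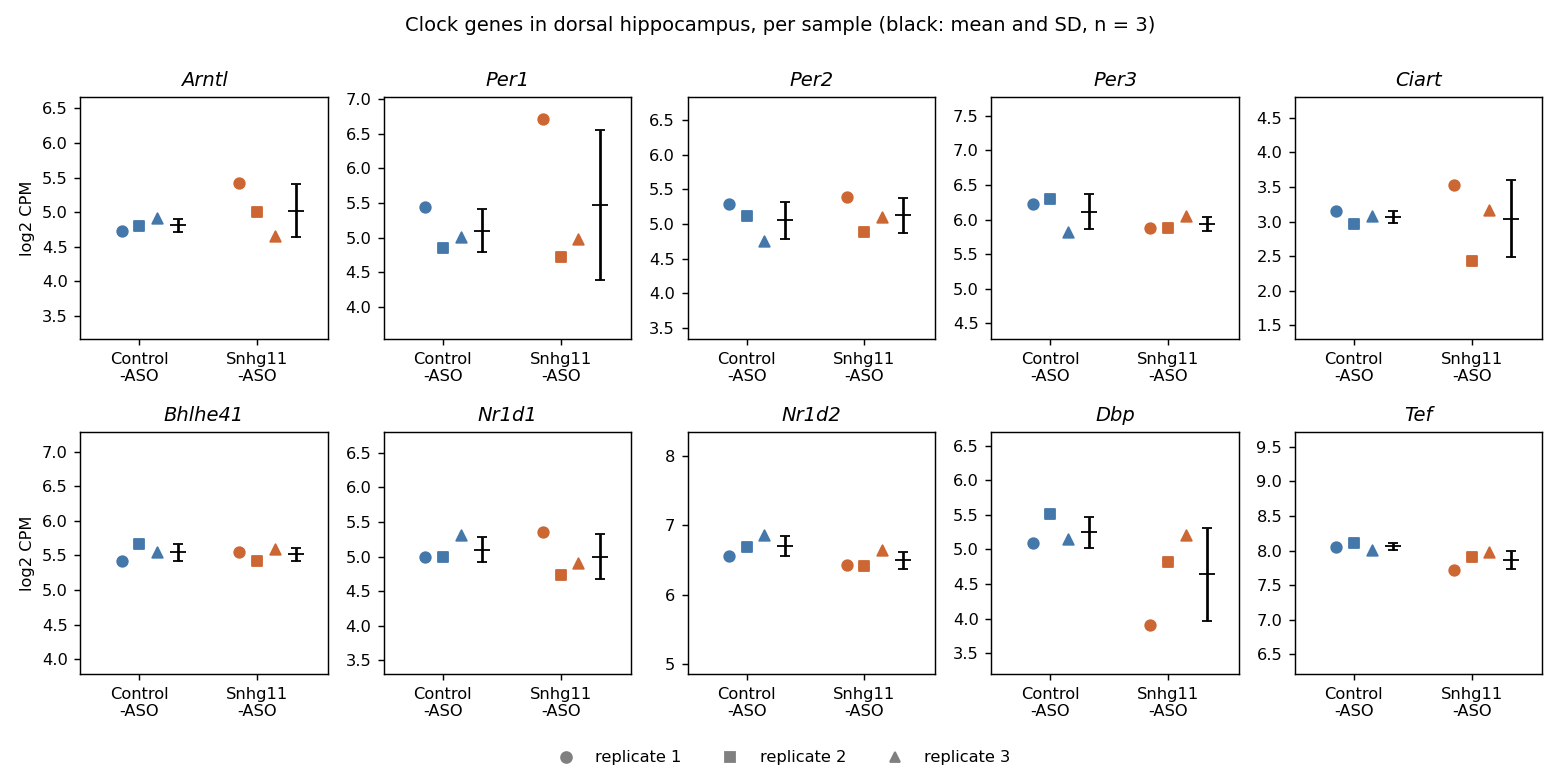
Level of each of the 10 clock genes on the log2 CPM scale (y axis; every panel spans the same number of log2 units) in Control-ASO (blue) and Snhg11-ASO (orange) samples, with circles, squares and triangles for replicates 1, 2 and 3 and black bars for mean and SD (n = 3). Tef is the gene whose groups do not overlap, and the orange circle (Snhg11-ASO replicate 1) lies at the top of the Per1 panel and at the bottom of the Dbp panel.

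Arntl (ENSMUSG00000055116, chromosome 7, 113207465 to 113314126, plus strand, GRCm38), which encodes the activator BMAL1 and carries the REV-ERB and ROR element end shown above, stood at 26.3, 27.9 and 30.0 CPM in Control-ASO and at 42.6, 32.1 and 25.1 CPM in Snhg11-ASO. The Control-ASO values lay close together and the Snhg11-ASO values lay on both sides of them. The means were 28.1 ± 1.82 and 33.2 ± 8.83 CPM (SD, n = 3 each). By edgeR, the log2 fold change was 0.24 (SE 0.19, 95% interval -0.22 to 0.70, adjusted p = 0.771), and 0.024 without Snhg11-ASO replicate 1. Without Snhg11-ASO replicate 3 instead, it was 0.41 (edgeR unadjusted p = 0.0418, adjusted p = 0.594).

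The Period genes encode the repressors that close the loop, and they did not share a direction. Per1 (ENSMUSG00000020893, chromosome 11, 69095217 to 69109960, plus strand), an immediate-early gene of the clock that responds to light, cAMP and glucocorticoids, stood at 43.5, 28.7 and 32.2 CPM in Control-ASO and at 104, 26.4 and 31.4 CPM in Snhg11-ASO. A single library, Snhg11-ASO replicate 1, lay far above the other 5 samples, which covered 26.4 to 43.5 CPM. The log2 fold change of 0.63 (SE 0.52, edgeR adjusted p = 0.774) became -0.27 without that library. Per2 (ENSMUSG00000055866, chromosome 1, 91415982 to 91459324, minus strand), whose protein is the main partner of the cryptochromes in the repressor complex together with PER1, stood at 38.9, 34.7 and 27.0 CPM in Control-ASO and at 41.7, 29.5 and 34.4 CPM in Snhg11-ASO. The 2 groups covered almost the same range, and the log2 fold change was 0.070 (SE 0.18, 95% interval -0.36 to 0.50, edgeR adjusted p = 0.935), or -0.068 without Snhg11-ASO replicate 1. Per3 (ENSMUSG00000028957, chromosome 4, 151003652 to 151044665, minus strand), the Period gene with the D-box pair shown above, stood at 74.9, 78.5 and 56.5 CPM in Control-ASO and at 58.6, 59.0 and 66.3 CPM in Snhg11-ASO. Control-ASO replicates 1 and 2 were the highest and Control-ASO replicate 3 the lowest of the 6, with a log2 fold change of -0.19 (SE 0.14, 95% interval -0.52 to 0.14, edgeR adjusted p = 0.755) that was -0.16 without Snhg11-ASO replicate 1.

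Ciart and Bhlhe41 encode further repressors of BMAL1 and CLOCK, and Ciart is known for a rhythm of large amplitude in many tissues. Ciart (ENSMUSG00000038550, chromosome 3, 95878503 to 95882251, minus strand) stood at 8.80, 7.76 and 8.43 CPM in Control-ASO and at 11.5, 5.34 and 8.91 CPM in Snhg11-ASO. The Control-ASO values differed little (8.33 ± 0.530 CPM, SD, n = 3), while Snhg11-ASO held both the highest and the lowest sample (8.58 ± 3.09 CPM, SD, n = 3). The estimate for Ciart was a log2 fold change of 0.042 (SE 0.27, 95% interval -0.61 to 0.69, edgeR adjusted p = 0.978). It turned to -0.22 without Snhg11-ASO replicate 1 and was 0.29 without Snhg11-ASO replicate 2. Bhlhe41 (ENSMUSG00000030256, chromosome 6, 145858243 to 145865558, minus strand), which encodes DEC2, stood at 43.0, 50.6 and 46.7 CPM in Control-ASO and at 46.6, 42.7 and 48.5 CPM in Snhg11-ASO. It had the narrowest spread of the 10 members over the 6 samples, a 1.19-fold range, and a log2 fold change of -0.026 (SE 0.10, edgeR adjusted p = 0.960), or -0.036 without Snhg11-ASO replicate 1.

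The REV-ERB repressors are the pair that links BMAL1 back to its own gene. Nr1d1 (ENSMUSG00000020889, chromosome 11, 98767932 to 98775333, minus strand) stood at 32.0, 31.7 and 39.7 CPM in Control-ASO and at 40.9, 26.5 and 29.8 CPM in Snhg11-ASO. The 2 highest samples were Snhg11-ASO replicate 1 and Control-ASO replicate 3. The log2 fold change was -0.088 (SE 0.19, 95% interval -0.53 to 0.35, edgeR adjusted p = 0.917), and -0.29 without Snhg11-ASO replicate 1 (unadjusted p = 0.0627). Nr1d1 overlaps exons of Thra on the other strand, and with both strands counted its log2 fold change was -0.13. Nr1d2 (ENSMUSG00000021775, chromosome 14, 18204054 to 18239127, minus strand) stood at 94.4, 103 and 116 CPM in Control-ASO and at 86.3, 84.9 and 99.9 CPM in Snhg11-ASO. Only Snhg11-ASO replicate 3 reached into the Control-ASO range. The means were 105 ± 10.9 and 90.4 ± 8.26 CPM (SD, n = 3 each), with a log2 fold change of -0.21 (SE 0.11, 95% interval -0.48 to 0.056, edgeR adjusted p = 0.680), and of -0.18 without Snhg11-ASO replicate 1.

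Dbp and Tef encode output factors of the PAR bZIP family, which bind D-boxes and drive rhythmic target genes. Dbp is among the clock genes of largest amplitude in mouse tissues. Dbp (ENSMUSG00000059824, chromosome 7, 45705088 to 45710203, plus strand) stood at 34.2, 45.4 and 35.3 CPM in Control-ASO and at 14.9, 28.2 and 36.8 CPM in Snhg11-ASO. Snhg11-ASO replicates 1 and 2 lay below all Control-ASO samples, while Snhg11-ASO replicate 3 lay inside their range. The means were 38.3 ± 6.16 and 26.6 ± 11.0 CPM (SD, n = 3 each). The log2 fold change was -0.52 (SE 0.31, 95% interval -1.26 to 0.21, edgeR adjusted p = 0.703, DESeq2 adjusted p = 0.671), and -0.24 without Snhg11-ASO replicate 1. Without Snhg11-ASO replicate 3 instead, it was -0.83 (edgeR unadjusted p = 0.0299, adjusted p = 0.594). DESeq2 gave an unadjusted p of 0.00827 and an adjusted p of 0.203 there. Exons of Sphk2 lie opposite those of Dbp, and with both strands counted the log2 fold change of Dbp was -0.51.

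Tef (ENSMUSG00000022389, chromosome 15, 81802421 to 81826863, plus strand) stood at 267, 276 and 258 CPM in Control-ASO and at 210.4, 239 and 252 CPM in Snhg11-ASO. The lowest Control-ASO sample and the highest Snhg11-ASO sample were close to each other, but the groups did not overlap. The means were 267 ± 9.10 and 234 ± 21.1 CPM (SD, n = 3 each). The log2 fold change was -0.19 (SE 0.10, 95% interval -0.42 to 0.038, edgeR adjusted p = 0.669), and -0.12 without Snhg11-ASO replicate 1. Hlf, the remaining PAR bZIP gene, was not a member but belonged to a list of 19 other clock genes. It stood at 66.2, 61.1 and 91.8 CPM in Control-ASO and at 47.9, 39.8 and 44.8 CPM in Snhg11-ASO, with no overlap. Its log2 fold change of -0.73 (SE 0.17, 95% interval -1.12 to -0.33) had an unadjusted p of 0.00360 and an adjusted p of 0.445 by edgeR, while DESeq2 called it lower (log2 fold change -0.72, adjusted p = 0.0246). Of the 19 alternatives run, 2 called Hlf, both with DESeq2, and its adjusted p covered 0.00575 to 0.951 over them. Point estimates of the 3 PAR bZIP genes were thus all negative, and Hlf is the one whose difference passed a test.

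**Figure D2:**
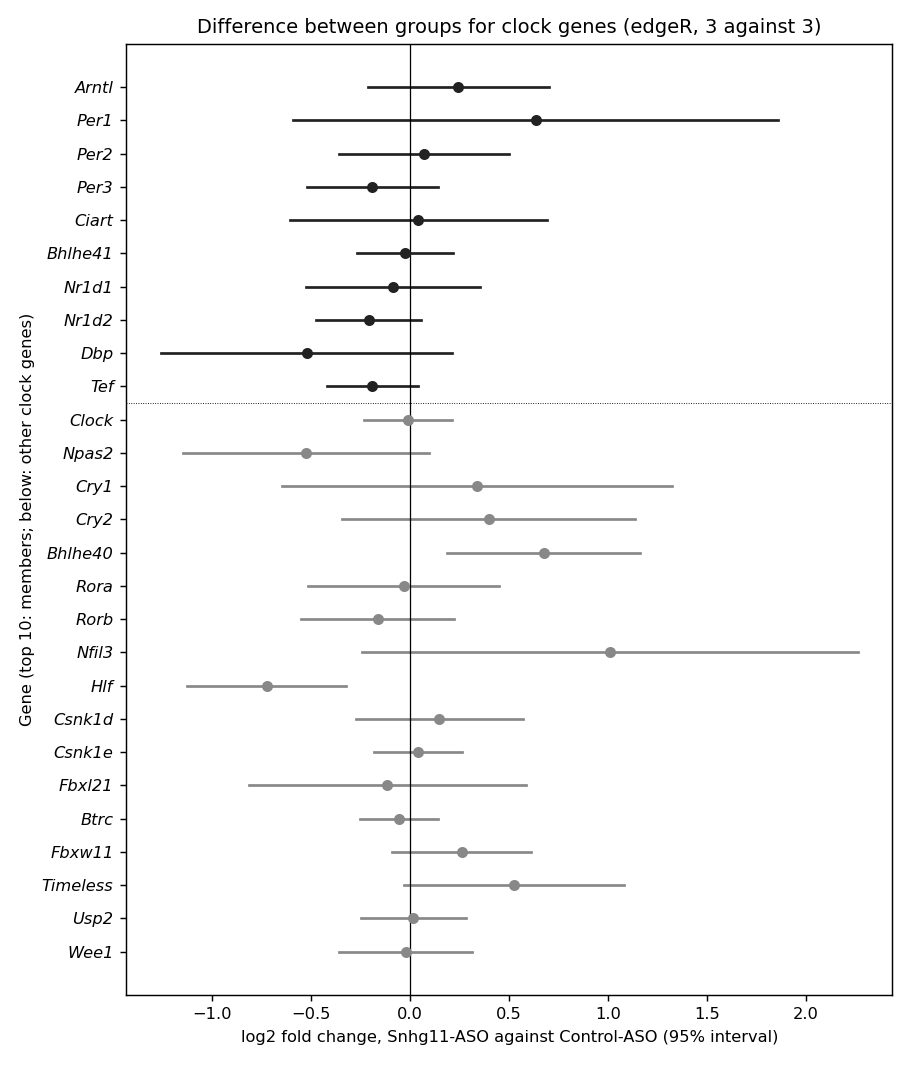
Log2 fold change of Snhg11-ASO against Control-ASO (x axis, edgeR, 3 samples against 3) for the 10 clock members (black) and 17 other clock genes (grey), one gene per line on the y axis, with bars for the 95% interval. The intervals of all 10 members cross 0, and those of Hlf (below 0) and Bhlhe40 (above 0) do not.

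Of the 19 other clock genes, edgeR called 0 and DESeq2 called 1, Hlf, beside 1.44% of all genes given an adjusted p by DESeq2. At an unadjusted p under 0.05 by edgeR there were 2, Hlf (lower) and Bhlhe40 (higher), beside 8.11% of all tested genes. The groups did not overlap in 4, with Hlf lower and 3 higher, Bhlhe40 and Timeless among them, beside 15.4% of all tested genes. The median log2 fold change of the 19 was 0.015, with 9 negative and 10 positive. Bhlhe40, which encodes DEC1, the paralogue of the Bhlhe41 product, stood at 56.7, 52.3 and 57.2 CPM in Control-ASO and at 120.1, 75.2 and 69.9 CPM in Snhg11-ASO. All 3 Snhg11-ASO samples lay above the Control-ASO samples. Its log2 fold change was 0.67 (SE 0.21, 95% interval 0.19 to 1.16, unadjusted p = 0.0138, edgeR adjusted p = 0.530, DESeq2 adjusted p = 0.133). Without Snhg11-ASO replicate 1 it was 0.39 (unadjusted p = 0.00196), and DESeq2 called it in the fits without Snhg11-ASO replicate 1 and without replicate 3. Its paralogue Bhlhe41 was within its spread in the same samples, as given above.

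Among the partners of BMAL1, Clock stood at 146, 151 and 162 CPM in Control-ASO and at 162, 155 and 139 CPM in Snhg11-ASO (log2 fold change -0.0092). Npas2, which can replace CLOCK in the forebrain, stood at 20.4, 13.1 and 22.4 CPM in Control-ASO and at 16.8, 10.2 and 11.9 CPM in Snhg11-ASO. This gave a log2 fold change of -0.52 (SE 0.26, unadjusted p = 0.0865), and -0.76 without Snhg11-ASO replicate 1 (unadjusted p = 0.0168). Npas2 was lower in Snhg11-ASO within each pair of equal replicate number, although no label ties these numbers together. With the replicate block in edgeR its unadjusted p was 0.0277 (adjusted p = 0.535). The members Dbp and Nr1d2 had unadjusted p of 0.0545 and 0.0541 in that fit. With offsets for genomic span added to the block, edgeR gave them unadjusted p of 0.0472 and 0.0367 (adjusted p = 0.630 and 0.623). These were 2 members under 0.05, beside 1576 genes in all. The cryptochromes, which repress together with the PER proteins, repeated the layout of Per1. Cry1 stood at 10.8, 9.45 and 8.02 CPM in Control-ASO and at 20.8, 7.08 and 7.90 CPM in Snhg11-ASO, and Cry2 stood at 92.4, 80.6 and 77.8 CPM and at 173, 75.2 and 81.9 CPM in the same order. Snhg11-ASO replicate 1 was the highest sample for both, and without it their log2 fold changes went from 0.34 to -0.33 and from 0.40 to -0.087. Nfil3, a repressor at D-boxes that opposes the PAR bZIP factors, stood at 5.88, 4.25 and 4.69 CPM in Control-ASO and at 19.3, 5.50 and 5.06 CPM in Snhg11-ASO. The resulting log2 fold change of 1.01 (SE 0.53, unadjusted p = 0.0980) became 0.099 without Snhg11-ASO replicate 1. The genes Rora and Rorb, which encode activators of Arntl, had log2 fold changes of -0.033 (Rora) and -0.16 (Rorb). Among kinases and ubiquitin ligase subunits that set how long PER and CRY proteins last, Fbxl21 was at -0.12, Btrc at -0.056, Csnk1e at 0.040, Csnk1d at 0.15 and Fbxw11 at 0.26. Timeless, counted at only 3.18 to 6.27 CPM, had a log2 fold change of 0.52 (unadjusted p = 0.0616), and the rhythmic output genes Usp2 and Wee1 were at 0.015 and -0.023.

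Read sample by sample, the members did not line up along one order. On the log2 scale, with each gene centred on its own mean over the 6 samples, Snhg11-ASO replicate 1 lay at 0.50 for Arntl, the highest of the samples, and had the lowest Dbp. It was also the highest sample for Per1, Per2, Ciart and Nr1d1 and the lowest for Tef, so it was extreme at 7 of 10 members, beside 65.8% of all tested genes. Snhg11-ASO replicate 2 was the lowest sample for 5 of 10 members, beside 9.68% of all tested genes, and each of the 9 members other than Arntl lay below its own mean there, at an average of -0.26. In Snhg11-ASO replicate 3, Arntl was the lowest of the 6 samples (-0.27) and 7 of the other 9 members lay above their mean, at an average of only 0.0089 over the 9. Snhg11-ASO replicate 1 had 5 of those 9 above their mean and an average of 0.10. Each Control-ASO sample had 6 of those 9 members above their mean, and averages of 0.00061 to 0.079 over the 9.

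The log2 ratio of Dbp to Arntl, which are in opposite phase in mouse tissues, was 0.37, 0.70 and 0.23 in Control-ASO. In Snhg11-ASO it was -1.51, -0.19 and 0.55. Replicates 1 and 2 of Snhg11-ASO lay below the Control-ASO range, while replicate 3 lay inside it. Replacing Dbp by Per2 gave 0.56, 0.31 and -0.15 in Control-ASO, with -0.030, -0.12 and 0.46 after Snhg11-ASO. Replacing it by Nr1d1 gave 0.28, 0.18 and 0.40 in Control-ASO, with -0.057, -0.27 and 0.25 after Snhg11-ASO. With Per2 the groups overlapped throughout, and with Nr1d1 Snhg11-ASO replicates 1 and 2 were again the lowest. These ratios were read after the levels were known and carry no test.

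**Figure D3:**
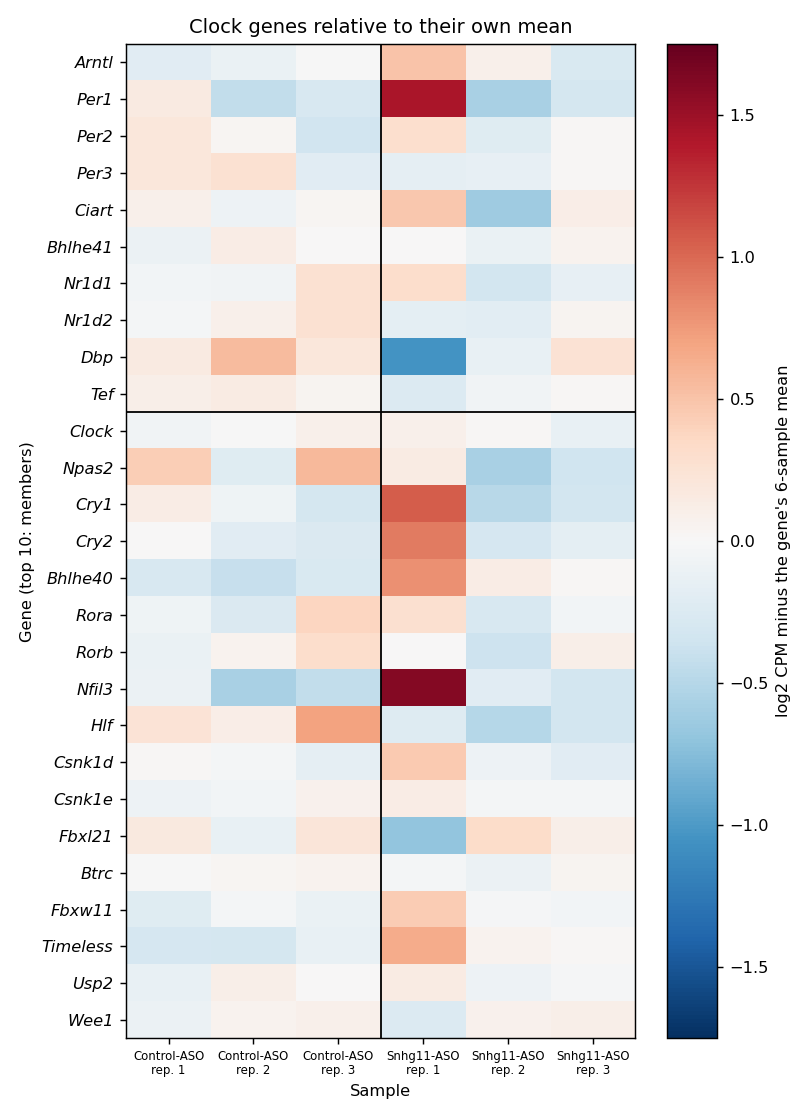
Log2 CPM of the 10 clock members (rows above the line) and 17 other clock genes (rows below it) in the 6 samples (columns), as the difference from each gene's 6-sample mean (red above, blue below, in log2 units). The column of Snhg11-ASO replicate 1 holds the deepest reds (Per1, Nfil3, Cry1, Cry2) beside a deep blue for Dbp, and the column of Snhg11-ASO replicate 2 is mostly blue among the members.

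The spread over the 6 samples differed between the members. Per1 had the widest range, 3.95-fold from the lowest to the highest sample, followed by Dbp at 3.04-fold, Ciart at 2.14-fold and Arntl at 1.70-fold. Per2 and Nr1d1 each covered 1.54-fold, Per3 1.39-fold, Nr1d2 1.37-fold, Tef 1.31-fold and Bhlhe41 1.19-fold. In log2 units the median range of the 10 members was 0.63, beside 0.74 over all tested genes. Per1 and Dbp were at the 90.6 and 84.3 percentiles of the range of all tested genes, and Bhlhe41 was at the 7.82 percentile.

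Per kilobase of merged exons, so that genes can be set beside each other, the mean level over the 6 samples was highest for Tef (31.8 ± 2.95 CPM per kb, SD, n = 6) and then Nr1d2 (18.0 ± 2.15). Both stood above the next gene in 6 of 6 samples with no overlap. Nr1d1 (10.9 ± 1.85) and Dbp (10.8 ± 3.42) could not be told apart, with Nr1d1 above Dbp in 2 of 6 samples. Dbp was above Per1 (7.89 ± 5.32) in 5 of 6 samples, with overlapping ranges. Per1, Bhlhe41 (6.89 ± 0.459) and Per3 (6.83 ± 0.962) followed within each other's spread. Per3 was above Per2 (5.87 ± 0.945) in 5 of 6 samples. Per2 was above Arntl (4.08 ± 0.846) in 6 of 6 samples, although their ranges over all samples overlapped, and Arntl and Ciart (3.74 ± 0.879) were again within each other's spread.

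Among the 5 genes whose pattern over the 6 samples was most like that of Dbp, by the root mean square difference of centred log2 CPM, were Abhd3 (0.0933), Vkorc1 (0.0991), Gm35315 (0.110) and Dlx1as (0.112), out of 19968 genes. No other member was close to Dbp by this difference, which counts the size of the swings as well as their direction. Tef came nearest, at rank 3012, followed by Nr1d2 at 4265, Per3 at 4412 and Bhlhe41 at 6886, and Per1 was the farthest, at 19037. Tef lay on the same side of its own mean as Dbp in each of the 6 samples, over a 1.31-fold range against 3.04-fold. For Arntl the nearest genes were Ndst2 (0.0590), Gpank1 (0.0616), Cd2ap (0.0653), Gm37651 (0.0673) and Gzmm (0.0693). The Arntl pattern was also turned upside down. Tef then ranked 818, Per3 2624, Nr1d2 3291, Bhlhe41 5090, Dbp 7432, Per2 10928, Nr1d1 12571, Ciart 14133 and Per1 18826 of 19968. Nr1d1, Per2, Ciart and Per1 were nearer to the pattern of Arntl as it stood, at ranks 3958, 6613, 9675 and 14912. Tef, Per3, Nr1d2, Bhlhe41 and Dbp were nearer to the pattern turned upside down. For Bhlhe41, which varied little, the differences were close (0.276 as it stood and 0.255 turned). Because the measure counts size, Dbp ranked behind Bhlhe41 although it lay opposite to Arntl in each sample. The ranks therefore do not sort genes by phase. These ranks rest on 6 samples, of which Snhg11-ASO replicate 1 holds the extreme value for both Dbp and Arntl, and on no test.

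Snhg11-ASO replicate 1 also stood apart in other gene groups. Genes induced by glucocorticoids, 10 genes listed by name, summed to 461, 502 and 537 CPM in Control-ASO and to 1726, 556 and 579 CPM in Snhg11-ASO. Snhg11-ASO replicate 1 was the highest sample for 9 of the 10, beside 33.3% of all tested genes. edgeR called 0 of the 10 and DESeq2 called 0. By edgeR, 2 had an unadjusted p under 0.05 (Mt1 and Mt2, higher), beside 8.11% of all tested genes. The median log2 fold change of the 10, 0.89, became 0.035 without that library. The groups did not overlap in 2 of the 10, Mt1 and Mt2, beside 15.4% of all tested genes. Without that library Mt1 and Mt2 were at 0.41 (edgeR unadjusted p = 0.0589) and 0.70 (edgeR unadjusted p = 0.0103). Mt1, a metallothionein, stood at 105, 155 and 154 CPM in Control-ASO and at 602, 171 and 197 CPM in Snhg11-ASO (unadjusted p = 0.0390, edgeR adjusted p = 0.591). Sgk1, a kinase gene induced through the glucocorticoid receptor, stood at 70.6, 66.4 and 69.0 CPM in Control-ASO and at 252, 67.5 and 64.1 CPM in Snhg11-ASO. Mt2 was at 335 CPM in that library and at 44.1 to 106 CPM in the others, while Zbtb16 was at 109 CPM there and at 63.5 to 92.1 CPM in the others. Fkbp5 and Errfi1, named after their values were seen, were at 138 and 140.2 CPM in Snhg11-ASO replicate 1 and at 38.9 to 45.9 and 29.4 to 38.4 CPM in the other 5 samples. The library that was highest for Per1, Cry1, Cry2 and Nfil3 was thus also the highest for these genes, and the part of this in the clock values was not tested.

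**Figure D4:**
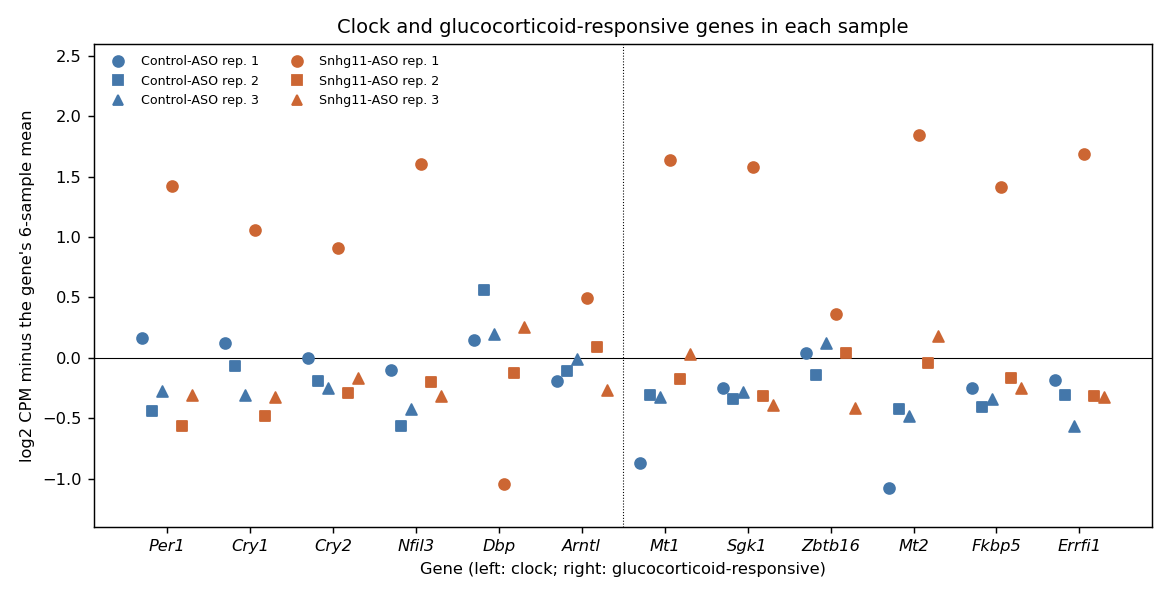
Difference of log2 CPM from each gene's 6-sample mean (y axis) for 6 clock genes (left of the dotted line) and 6 glucocorticoid-responsive genes (right), with Control-ASO in blue, Snhg11-ASO in orange and circles, squares and triangles for replicates 1, 2 and 3. The orange circle, Snhg11-ASO replicate 1, is the top point for every gene drawn except Dbp, where it is the bottom point. The genes drawn are a choice, and Fkbp5 and Errfi1 were added after their values were seen. Members for which this library was not the highest sample, such as Per3, Nr1d2, Bhlhe41 and Tef, are not drawn.

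Genes induced by neuronal activity, as Per1 itself can be, had positive log2 fold changes in 13 of 13, with a median log2 fold change of 0.71, and summed to 282, 200.1 and 271 CPM in Control-ASO and 535, 297 and 372 CPM in Snhg11-ASO. edgeR called 0, and DESeq2 called 1 (Fos, adjusted p = 0.00112), beside 1.44% of all genes given an adjusted p by DESeq2. By edgeR, 4 had an unadjusted p under 0.05 (Fos, Junb, Arc and Egr1), beside 8.11% of all tested genes. The groups did not overlap in 5, beside 15.4% of all tested genes. Arc, a synaptic immediate-early gene, stood at 83.0, 51.4 and 84.4 CPM in Control-ASO and at 99.2, 115 and 144 CPM in Snhg11-ASO, so that its groups did not overlap and replicate 1 was the lowest of its group. Egr1 (35.9, 34.5 and 33.7 against 65.2, 42.9 and 45.7 CPM) and Junb (31.2, 22.8 and 28.0 against 71.7, 32.6 and 40.8 CPM) had no overlap either, while Fosl2 did (52.6, 34.6 and 47.6 against 86.9, 31.2 and 38.5 CPM). Without Snhg11-ASO replicate 1 the median of the list was 0.26, with 10 positive and 3 negative, and the same 4 genes had an unadjusted p under 0.05. Over the same change, the median of the 10 clock members went from -0.057 to -0.17, with 9 negative, 1 positive and 0 at an unadjusted p under 0.05, beside 9.94% of the 20226 genes tested then and a median of 0.0017 over all of them. Cell type markers differed in that fit too: the 6 neuron markers had a median of -0.17 (5 lower, 2 with an unadjusted p under 0.05), the 5 oligodendrocyte markers 0.60 (5 higher, 3 with an unadjusted p under 0.05), the 5 astrocyte markers 0.37 (4 higher) and the 6 choroid plexus markers -2.86 (6 lower). The 5 granule cell markers had a median of 0.13 (4 higher) and the 5 endothelial markers 0.086 (3 higher). The 5 microglia markers had a median of 0.25 (5 higher). The part of all these markers in the clock values was not tested.

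Markers of other cell types also differed between samples of 1 group. Choroid plexus markers, 6 genes, summed to 1891, 36.2 and 1227 CPM in Control-ASO and to 1294, 122 and 66.0 CPM in Snhg11-ASO, and none of the 6 was at 0 counts in any sample. Control-ASO replicates 1 and 3 and Snhg11-ASO replicate 1 held the high values. Astrocyte markers (5 genes) summed to 1130, 3016 and 2243 CPM in Control-ASO and to 1493, 3399 and 3578 CPM in Snhg11-ASO, and microglia markers (5 genes) to 160.3, 278 and 194 CPM and to 74.6, 219 and 256 CPM. Oligodendrocyte markers (5 genes) summed to 1301, 2377 and 1559 CPM in Control-ASO and to 1176, 2891 and 2330 CPM in Snhg11-ASO. In bulk tissue, fewer cells of a type and less RNA per cell cannot be told apart. The part of these differences in the clock values was not tested.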

How the data were processed

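Bulk RNA-seq of 6 dorsal hippocampus samples was analysed. Per the labels and the study's methods, RNA was extracted with TRIzol, ribosomal RNA was depleted, and stranded paired-end libraries were sequenced. The authors aligned reads to mm10 with STAR (2.5.2a per the submitters' processing notes) and deposited raw counts per gene for each sample, in STAR's layout although the methods name Rsubread, with no normalization and no pooling. Reverse-strand counts were used, since they held 96.2% to 96.8% of the stranded pairs. Summary lines that name no gene, 43.5% to 51.4% of pairs, entered neither the library sizes nor the tests. The depth was 59542425 to 77826229 pairs per sample, with these summary lines included.

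Names and positions came from GENCODE M21 on GRCm38 (55141 of 55401 identifiers matched), and start windows from RefSeq (GRCm38.p6). Per2 had no window. Counts were filtered with filterByExpr (minimum count 10), scaled by TMM and compared with edgeR's quasi-likelihood test, adjusted by Benjamini-Hochberg over all 19969 genes at 0.05 (R 4.3.3, edgeR 4.0.16). SEs were derived from each fold change and its F statistic. A prior count of 2 was added for log2 CPM. The fit was run on simulated data with the same dispersion for every gene and no outlying library. That run therefore does not cover the spread between the samples seen here. Alternatives used DESeq2 1.42.0, limma-voom (limma 3.58.1), other scalings, filters and strands, a replicate block, offsets for genomic span, and each sample left out.

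The members and lists were chosen with earlier results of these data known. The text names all 10 members, 17 of the 19 other clock genes, Snhg11, the 4 genes of highest count in each list of responsive genes and those past the threshold, and the 5 genes most like Dbp and Arntl, with 1 of those for Dbp left out. Genes left out by name are not reported here but enter the counts. The study removed 1 Snhg11-ASO sample that it does not name, and all 6 samples were kept here. Samples with the same replicate number deviated together from their groups (r across genes of 0.297, 0.179 and 0.103, each above 0.1; Control-ASO replicate 2 and Snhg11-ASO replicate 3 gave 0.188, and over the 10 members the third pair gave -0.163), and were handled as pairs in the block, although no label or method ties a number to a common day or litter.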

Additional observations from a re-analysis of the deposited data

How the results depend on the processing

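Of the 19 alternatives, 0 called any of the 10 members, whose smallest adjusted p was 0.203 (Dbp), and Tef alone kept its groups apart with both strands counted. DESeq2 called 258 genes in all, 1 other clock gene and Snhg11 (log2 fold change -2.12). With a sample left out, edgeR called 0 to 2 genes, the log2 fold change of Snhg11 was -2.56 to -1.83, and the members' median was -0.17 (without Snhg11-ASO replicate 1) to 0.030. DESeq2 without Snhg11-ASO replicates 1, 2 and 3 in turn called 347, 275 and 223 genes in all, 2, 0 and 1 other clock genes, and Snhg11 each time (-2.57, -1.94 and -1.96), with a members' median of -0.17 without replicate 1. The replicate block called 0 genes, gave a members' median of -0.065 and a Snhg11 log2 fold change of -2.10 (adjusted p = 0.350), and changed no call. Signs turned for Ciart with the block (-0.022) and limma-voom (-0.032), for Usp2 with upper-quartile factors (-0.0058), both strands (-0.0089), span offsets (-0.0053) and block plus span (-0.0065), for Clock with both strands (0.0022), span offsets (0.0053) and block plus span (0.0055), for Rora with span offsets (0.28) and block plus span (0.28), and for Btrc with the same (0.022 and 0.019). The cause was not tested. Signs also turned when edgeR was run with a sample left out: Per1 covered -0.27 to 0.96, Per2 -0.070 to 0.18, Ciart -0.22 to 0.29, Bhlhe41 -0.092 to 0.034, Nr1d1 -0.29 to 0.037, Clock -0.058 to 0.051, Cry1 -0.33 to 0.60, Cry2 -0.087 to 0.61, Rora -0.20 to 0.16, Csnk1d -0.083 to 0.27, Csnk1e -0.016 to 0.084, Fbxl21 -0.33 to 0.13, Usp2 -0.054 to 0.073 and Wee1 -0.090 to 0.078. In DESeq2, signs turned without Snhg11-ASO replicate 1 for Per1 (-0.27), Per2 (-0.072), Ciart (-0.23), Cry1 (-0.33), Cry2 (-0.091), Csnk1d (-0.086), Csnk1e (-0.020), Fbxl21 (0.13), Usp2 (-0.058) and Wee1 (0.074), without replicate 2 for Bhlhe41 (0.024), Nr1d1 (0.037) and Rora (0.089), and without replicate 3 for Clock (0.054). Arntl, Per3, Nr1d2, Dbp and Tef kept their sign in all 19 alternatives.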

Other observations

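Body temperature sets another group of rhythmic genes, the heat shock genes and the cold-inducible RNA-binding protein genes. Of 8 such genes listed, edgeR and DESeq2 called 0, 0 had an unadjusted p under 0.05, 3 log2 fold changes were negative and 5 positive, and the median was 0.038. Hspa8, a constitutive chaperone gene, was at -0.33, Hsp90aa1 at -0.12 and Hsph1 at 0.064. Rbm3, which is induced by mild cold, stood at 45.9, 45.3 and 36.5 CPM in Control-ASO and at 92.6, 45.8 and 52.2 CPM in Snhg11-ASO. Its log2 fold change was 0.58 (unadjusted p = 0.0676 by edgeR), and 0.20 without Snhg11-ASO replicate 1. That library was the highest sample for 6 of the 8 genes, beside 33.3% of all tested genes.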
